A study of Mus musculus with 2 samples.

Results

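The cells described here were 1842 tumour cells of a mouse pancreatic cancer line with high counts of Areg, Btc and Cftr RNA, out of 21361 cells that passed the cell filter in 1 single-cell library. They were chosen in 2 steps from counts of unique molecular identifiers (UMIs), the tags that mark single captured RNA molecules. Cells of type B, a name for tumour cells and not for lymphocytes, had at least 2 UMIs of S100a7a, Rgs20, Hs6st2, Ccbe1, Ctse and Mal together. They also had at least 3 times as many of these as of Pde10a, Plcb1, Galnt18, Arhgap15 and Ceacam1, the genes of the A cells. Among the 8936 B cells, the members had at least 4 UMIs of Areg, Btc and Cftr together and no UMI of Krt14 or Sprr1a, a pair of squamous genes. The members were 20.6% of the B cells (exact 95% Clopper-Pearson interval 19.8 to 21.5%). They were compared with the 2975 B cells that had at most 1 UMI of the 3 genes, called low cells here. Of the low cells, 1804 had no Krt14 or Sprr1a UMI. Another 2988 B cells had 2 or 3 UMIs of the 3 genes, and 1131 had 4 or more together with a Krt14 or Sprr1a UMI. These were in neither group.

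Areg (amphiregulin), Btc (betacellulin) and Ereg (epiregulin) encode growth factors of the EGF family. They are made as membrane-bound precursors, released by ADAM proteases, and bind the receptor EGFR, which signals through ERK to genes such as Dusp6 and Fosl1. Cftr encodes the chloride and bicarbonate channel that duct cells of the normal pancreas use to secrete fluid, and in normal pancreas it marks the ducts.

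Expression was measured in KPCY 6419c5, a mouse pancreatic ductal adenocarcinoma line. Isolated clones 76 and 84, pooled in equal numbers, had been edited for 19 days by BASELINE, a lineage recorder built on a Cas12a adenine base editor, and formed a single 10x Chromium library. Members, low cells and A cells therefore shared line, treatment, time and library, and were told apart only by the rule above. Cells were not assigned to clones, so whether A and B are the 2 clones was not tested, and a second pool, of 5 clones, was not analysed here. Because the library is a single sample, groups were compared without a significance test, and intervals on levels are exact 95% Poisson intervals of summed UMIs that cover counting error only.

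The library held 22178 barcodes with 500 to 23576 UMIs each. Members had a median of 5646.5 UMIs and 2349 genes, and low cells 5059 UMIs and 2197 genes. Since a fixed number of UMIs picks deeper cells, each cell was thinned at random to 3000 UMIs before levels were compared. This left 1835 members and 2912 low cells, with 7 and 63 shallower cells left out, and levels are given as counts per 1000000 UMIs (CPM) after thinning. Mitochondrial UMIs had a median of 1.84% in members and 1.96% in low cells. Of the members, 42 (2.28%, interval 1.65 to 3.07%) were marked as possible doublets by Scrublet, against 83 low cells (2.79%, 2.23 to 3.45%).

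The label of the cells was read against duct and other markers. The duct keratins were abundant and close to equal in both groups. Krt19 stood at 1461 CPM in members and 1521 in low cells, and Krt7 at 1341 and 1390 CPM. Krt8 was at 1423 and 1490 CPM and Krt18 at 2927 and 3056 CPM. The other 2 of the 6 ductal markers were scarce. Epcam, an adhesion protein of epithelia, was at 2.54 CPM in members and 2.86 in low cells, and Sox9, a duct transcription factor, was at 3.27 and 6.64 CPM. Summed levels of the markers of other cell types were low in both groups. The 6 acinar genes summed to 3.45 CPM in members and 5.15 in low cells, the 5 endothelial genes to 8.36 and 9.04, the 4 globin genes to 1.45 and 4.81, the 6 immune genes to 1.09 and 1.26, and the 6 fibroblast genes to 0.363 and 0.916 CPM. Of these lists, 4 acinar, 3 endothelial, 2 globin, 3 immune and 5 fibroblast genes were at 0 in members, among them the pan-leukocyte gene Ptprc and the endothelial gene Pecam1. No UMI of the 6 endocrine genes was found in members, which allows up to 0.670 CPM.

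The stretches of 250 bases upstream of the annotated starts of the 3 genes are shown because these genes define the cells and differ in what their starts carry. They are from RefSeq, build GRCm38.p6, and are written on each gene's own strand. The Areg stretch is chr5:91139349-91139598 (plus strand), the Btc stretch chr5:91402995-91403244 (minus strand) and the Cftr stretch chr6:18170437-18170686 (plus strand). Capitals mark motif matches.
Areg: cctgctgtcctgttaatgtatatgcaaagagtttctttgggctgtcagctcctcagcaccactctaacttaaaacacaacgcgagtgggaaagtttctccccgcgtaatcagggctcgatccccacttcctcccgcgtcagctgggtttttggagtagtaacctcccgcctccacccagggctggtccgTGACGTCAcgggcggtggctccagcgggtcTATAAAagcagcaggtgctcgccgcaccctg
Btc: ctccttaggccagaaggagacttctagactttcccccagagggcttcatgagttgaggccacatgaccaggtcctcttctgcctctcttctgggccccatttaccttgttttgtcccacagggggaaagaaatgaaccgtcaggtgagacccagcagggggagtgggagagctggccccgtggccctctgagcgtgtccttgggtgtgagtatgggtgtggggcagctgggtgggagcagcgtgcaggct
Cftr: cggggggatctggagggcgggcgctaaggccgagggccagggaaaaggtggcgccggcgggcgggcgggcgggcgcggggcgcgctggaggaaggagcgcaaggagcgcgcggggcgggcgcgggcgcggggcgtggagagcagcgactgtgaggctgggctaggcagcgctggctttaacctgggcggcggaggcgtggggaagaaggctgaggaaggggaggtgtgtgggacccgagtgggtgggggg
Both strands were searched for 4 motifs: the cyclic AMP response element TGACGTCA, the AP-1 site TGANTCA, the TEAD site GGAATG and the TATA box TATAAA. The Areg stretch held the cyclic AMP element 61 to 54 bases before the start and the TATA box 31 to 26 bases before it, both on the plus strand. The cyclic AMP element was found in 1.62% and the TATA box in 12.97% of the 27025 RefSeq promoter stretches of this length. The AP-1 letters stood in 6.87% of them and the TEAD letters in 12.63%. The Btc and Cftr stretches held none of the 4. A match is a description of letters, and binding was not measured.

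Areg supplied most of the counts that chose the members. Of the 10728 UMIs of the 3 genes in members, before thinning, 85.1% were Areg, 7.86% Cftr and 7.05% Btc. The sum had a median of 5 UMIs per member and a maximum of 24. Areg alone was seen in 847 members (46.0%), all 3 genes in 170 (9.23%), and 4 members had no Areg UMI. So most members were chosen on Areg, and few showed a UMI of each of the trio. Btc and Cftr were scarce, at 68.3 and 77.7 CPM in members, whose median depth was 5646.5 UMIs. At such levels a missing UMI does not show that a cell lacked the RNA. Just inside the threshold lay 618 B cells with 4 UMIs and no Krt14 or Sprr1a, and just outside it 826 with 3 UMIs. Before thinning, their Areg levels were 587 and 454 CPM, their Btc levels 49.1 and 44.6 CPM, and their Cftr levels 58.4 and 43.0 CPM.

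The levels of the rule genes describe the choice and carry no test. Areg stood at 848.5 CPM in members (824 to 873), 88.9 in low cells (82.8 to 95.4) and 49.0 in A cells (46.1 to 52.0). A thinned Areg UMI was seen in 92.3% of members, 26.7% of low cells and 10.9% of A cells. Btc stood at 68.3 CPM in members (61.6 to 75.6), 8.81 in low cells (6.96 to 11.0) and 16.3 in A cells (14.7 to 18.1). Cftr stood at 77.7 CPM in members (70.6 to 85.5) and 15.1 in low cells (12.6 to 17.9), and at 1.22 in A cells (0.801 to 1.77). Cftr was scarce in A cells: 0.284% of thinned A cells (interval 0.176 to 0.433%) had a UMI, against 19.1% of members and 4.53% of low cells. Before thinning these shares were 0.614%, 31.9% and 7.29%, with median depths of 4699.5 UMIs in A cells and those given above. Krt14 and Sprr1a, at 0 in members by the rule, stood at 77.5 and 138 CPM in low cells.

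The 3 genes were then read against each other in all 8827 thinned B cells, a set chosen on none of them. Cftr differed little with Areg: it stood at 41.5 CPM (37.5 to 45.8) in B cells with no Areg UMI, 44.8 (40.2 to 49.7) with 1 and 49.0 (44.6 to 53.8) with 2 or more. In the other direction, Areg stood at 421 CPM (413 to 429) in B cells with no Cftr UMI, 458 (433 to 484) with 1 and 460 (395 to 533) with 2 or more. The first 2 of these intervals do not overlap. Btc went further with Areg, at 30.4 CPM (26.9 to 34.1), 35.6 (31.6 to 40.0) and 42.9 (38.7 to 47.3) over the same 3 steps of Areg. Ereg, which is no rule gene, went with Areg in the same order, at 50.5 (46.0 to 55.2), 59.7 (54.5 to 65.3) and 74.4 CPM (68.9 to 80.3). Cftr stood at 44.7 CPM (42.1 to 47.5), 47.0 (38.6 to 56.5) and 61.7 (34.5 to 102) over the same steps of Btc, the last in 81 cells, and Btc at 35.6, 41.9 and 33.6 CPM over the steps of Cftr.

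Areg, Btc, Ereg and Epgn (epigen), all EGFR ligands, lie close together on chromosome 5. In the order of 1845 annotated genes of that chromosome Epgn was at place 781, Ereg at 783, Areg at 784 and Btc at 786. Cftr lies on chromosome 6. Ereg was at 80.5 CPM in members (73.2 to 88.3), 46.1 in low cells (41.7 to 50.9) and 24.6 in A cells (22.6 to 26.8). Epgn was nearly silent, with 1 UMI in members and 0 in low cells, which allows up to 0.422 CPM there.

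Genes along the whole of chromosome 5 were higher in members, not the ligand cluster alone. Of 360 chromosome 5 genes that had a mean of at least 25 CPM over members and low cells, rule genes left out, 346 (96.1%) were higher in members. Their median log2 ratio of members to low cells was 0.29. The other autosomes and the X chromosome had medians from -0.05 to 0.00, and 38.0 to 49.4% of their genes were higher in members. With Ereg left out, the remaining 359 genes were placed in 12 blocks of 29 or 30 neighbours from one end of chromosome 5 to the other. Every block had a positive median, from 0.17 to 0.35. Against low cells with no Krt14 or Sprr1a UMI the chromosome 5 median was 0.21. Chromosome 5 without Areg, Btc and Ereg gave 7.30% of the UMIs of members and 6.11% of those of low cells. The rule used a pair of genes of this chromosome, so these values are a description, and DNA copies were not measured.

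**Figure D1:**
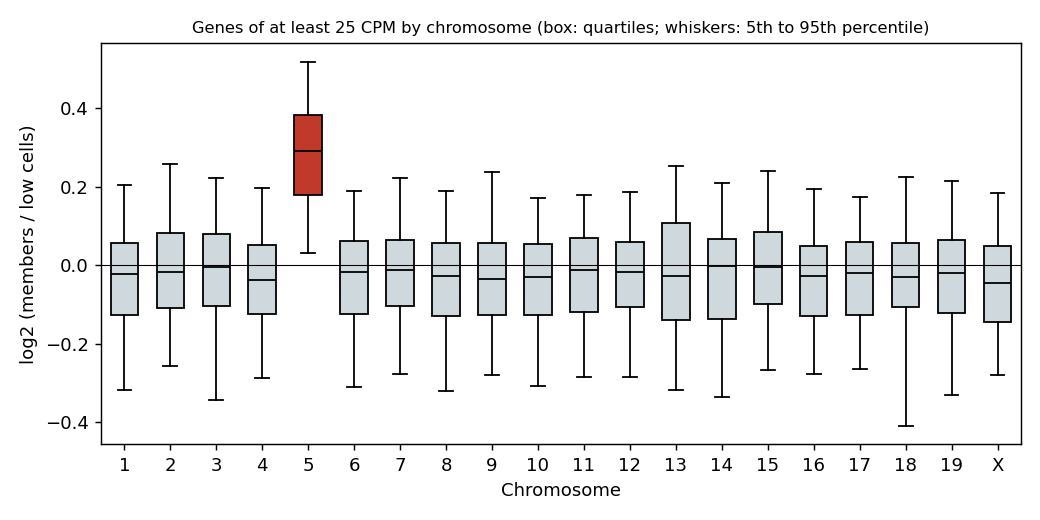
Log2 ratio of the thinned level in members to that in low cells, on the vertical axis, for genes of at least 25 CPM on each chromosome, without rule genes. Boxes show quartiles with the median as a line, and whiskers the 5th and 95th percentiles. The 360 genes of chromosome 5 sit at a median of 0.29, and the other chromosomes lie close to 0.

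The share of a cell's UMIs from chromosome 5 was uneven among B cells. In B cells with at least 6000 UMIs, with Areg, Btc and Ereg left out, the shares showed peaks at 3.4 to 3.6%, 5.6 to 5.8% and 7.4 to 7.6%, parted by low points at 4.4 to 4.6% and 6.6 to 6.8%. A cells had a single peak, at 6.4 to 6.6%. B cells were divided at 4.4% and 6.6%, limits set after the shares had been seen; 567 B cells (6.35%) lay within 0.2 points of a limit. Members fell mostly in the upper range: 1138 (61.8%) had at least 6.6%, 682 (37.0%) lay between the limits and 22 (1.19%) were under 4.4%. Of the low cells, 915 (30.8%) had at least 6.6%, 1673 (56.2%) lay between the limits and 387 (13.0%) were under 4.4%. The median share was 7.36% in members, 5.91% in low cells and 6.08% in low cells with no Krt14 or Sprr1a UMI. The ranges are cuts of a continuous share and are not cell types.

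**Figure D2:**
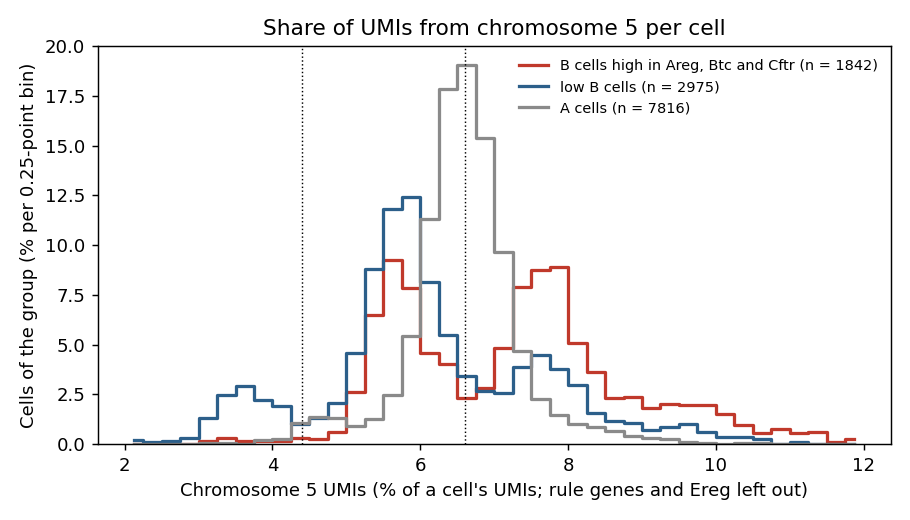
Share of each cell's UMIs from chromosome 5 (horizontal axis, percent, without Areg, Btc and Ereg) against the percent of the group's cells in each bin of 0.25 points, for 1842 members, 2975 low cells and 7816 A cells, before thinning. Dotted lines mark 4.4% and 6.6%. Members have their largest mass above 6.6%, low cells have theirs between the lines, and A cells form 1 peak at the upper line.

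The chromosome 5 share went with the count of the rule genes step by step. Its median was 5.82% in B cells with no UMI of Areg, Btc or Cftr, 6.03% with 2, 6.52% with 4 and 7.51% with 8 or more, whatever their Krt14 and Sprr1a counts. Total depth went the same way, from a median of 4983.5 UMIs to 7223.5. After thinning to equal depth, 31.6% of B cells with no Areg UMI had a share over 6.6%, 41.3% of those with 1 and 52.7% of those with 2 or more. For Btc these shares were 39.6%, 60.0% and 75.3%. For Cftr, on chromosome 6, they were 42.1%, 40.0% and 35.7%. The 2 chromosome 5 ligands went with the share of their chromosome. For Cftr the order was the opposite, over a smaller span and with 129 cells at the last step. B cells chosen by Cftr alone, described below, had a positive chromosome 5 median log2 ratio, 0.13. The direction for Cftr thus did not hold in both readings.

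Levels of the ligands in all thinned B cells followed the 3 ranges. Areg stood at 177 CPM (158 to 198) under 4.4%, 372 (362 to 383) between the limits and 530 (517 to 544) at 6.6% and over. Btc stood at 8.47 CPM (4.74 to 14.0), 24.9 (22.3 to 27.7) and 54.6 (50.4 to 59.2). Ereg stood at 37.3 CPM (28.8 to 47.4), 55.2 (51.3 to 59.2) and 73.1 (68.1 to 78.3). Cftr was nearly level, at 43.5 (34.3 to 54.4), 47.5 (43.9 to 51.3) and 42.2 CPM (38.5 to 46.2). Genes on other chromosomes also differed between the ranges. Ly6a, a surface protein of the Ly6 family encoded on chromosome 15, stood at 235, 503 and 986 CPM. Nupr1, a stress-induced chromatin protein encoded on chromosome 7, stood at 202, 54.0 and 38.9 CPM. Sprr1a, a cornified-envelope protein, stood at 367, 107 and 76.9 CPM and Krt14, the basal keratin, at 125, 85.7 and 41.5 CPM. In B cells the squamous genes whose absence the rule asks for were thus lowest where the chromosome 5 share was highest. A cells, with 82 thinned cells in the lowest range, had the same order for Ly6a (118, 228 and 310 CPM) and Nupr1 (285, 210 and 165 CPM). Areg, at 28.5, 43.3 and 55.3 CPM, Btc and Ereg were also higher in each successive range of A cells. Sprr1a, at 0, 18.4 and 12.2 CPM, and Krt14 did not keep their order there.

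**Figure D3:**
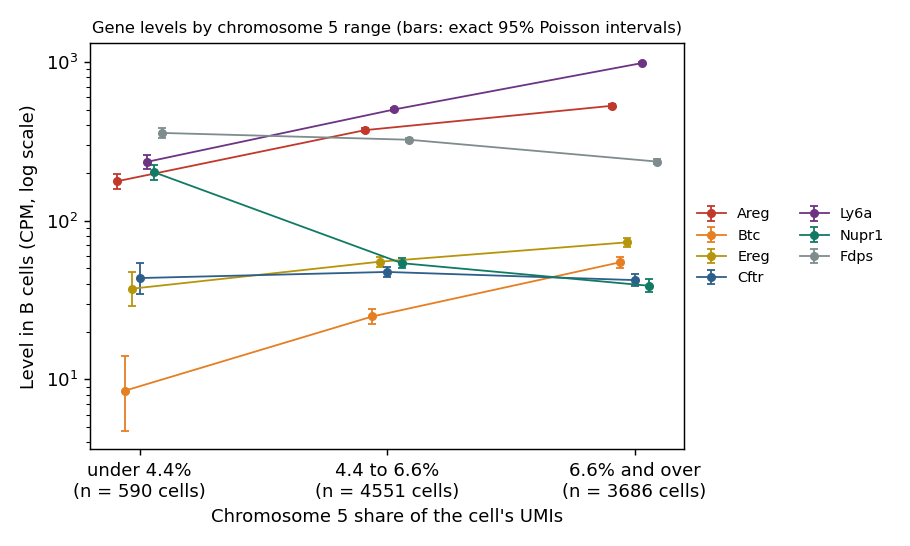
Level after thinning (vertical axis, CPM, log scale) of 7 genes in B cells of the 3 ranges of chromosome 5 share (horizontal axis), with exact 95% Poisson intervals. Areg, Btc, Ereg and Ly6a are higher in each successive range, Nupr1 and Fdps are lower, and Cftr lies between 42.2 and 47.5 CPM in all 3.

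Among the members themselves the same ranges differed. The 681 thinned members between the limits had Ly6a at 562 CPM (530 to 596) and Ly6c1, a Ly6 relative, at 94.96 CPM (82.1 to 109). The 1132 members at 6.6% and over had Ly6a at 1058 CPM (1023 to 1093) and Ly6c1 at 297 CPM (279 to 316). Btc was 43.6 CPM (35.0 to 53.6) in the former and 83.9 (74.5 to 94.3) in the latter, while Cftr was 90.6 (78.0 to 105) and 69.2 (60.6 to 78.6). Members were chosen on the sum of Areg, Btc and Cftr, so fewer Cftr UMIs were needed where the ligands were higher. The opposite order of Cftr among members therefore carries no test. In all thinned B cells Cftr was 47.5 CPM (43.9 to 51.3) and 42.2 (38.5 to 46.2) in these ranges, intervals that overlap. Btc kept its order there, at 24.9 and 54.6 CPM. Clu, which encodes the secreted chaperone clusterin, was 1109 CPM (1064 to 1156) between the limits and 773 (743 to 803) above them. Col4a3, a basement-membrane collagen chain, was 17.6 CPM (12.3 to 24.4) and 14.7 (10.9 to 19.4), and the proliferation marker Mki67 was 281 (258 to 305) and 292 (274.5 to 311), intervals that overlap. The members were thus mixed for chromosome 5 and for the Ly6 genes. Low cells were mixed in the same way, so this is not particular to members. In low cells Ly6a was 462 CPM between the limits and 858 at 6.6% and over. Ly6c1 was 83.8 and 232 CPM there, and Clu 1434.5 and 1163 CPM.

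Few genes outside the rule differed 1.5-fold between members and low cells. Of 5330 genes with a mean of at least 25 CPM, 12 (0.225%) were at least 1.5-fold higher in members and 29 (0.544%) at least 1.5-fold lower. Of the 12 higher genes 7 lie on chromosome 5, or 1.94% of its 360 genes, and 5 elsewhere, or 0.101% of 4970. Against low cells with no Krt14 or Sprr1a UMI, 4 genes (0.0751%) were higher and 15 (0.282%) lower. The low cells were also weighted so that their chromosome 5 shares matched those of members, an alternative added after seeing the data. Then 2 genes (0.0375%) were higher, Ereg and Aurkb, and 14 (0.262%) lower. With both restrictions 1 gene (0.0188%) was higher, Aurkb, and 7 (0.131%) lower. Aurkb lay close to the fold and passed it in 8 of 19 alternatives; its log2 ratio was 0.41 with another thinning seed, 0.43 unthinned, 0.31 at 5000 UMIs and 0.04 with the rule on thinned counts.

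Ereg was 1.74-fold higher in members, a log2 ratio of 0.80 (0.60 to 1.00), and its ratio was 0.61 against the weighted low cells. The other 6 higher genes of chromosome 5 were nearer to 0 under that weighting. These 6 count in the chromosome 5 share that was matched and Ereg does not. Their move toward 0 is therefore in part set by the weighting, and Ereg is no like comparison. Nipal1, a magnesium transporter, was at 50.1 CPM in members and 31.0 in low cells. Pi4k2b, a phosphatidylinositol 4-kinase, was at 54.3 and 34.2 CPM, and Noc4l, a factor of ribosome assembly, at 44.7 and 29.0 CPM. Cfap69, a cilium and flagellum protein, was at 48.0 and 31.1 CPM, Selenoi, an enzyme of phospholipid synthesis, at 47.4 and 31.6 CPM, and Cenpa, the centromeric histone, at 150 and 98.9 CPM. Against weighted low cells the log2 ratios of these 6 ranged from 0.21 for Selenoi to 0.40 for Noc4l.

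The 5 higher genes on other chromosomes were the Ly6 pair, Mrc1, Aurkb and Ska1. Ly6c1 was at 219 CPM in members (207 to 232) and 124 in low cells (116 to 131), or 1.77-fold, and Ly6a at 865 CPM (841 to 890) and 550 (535 to 566), or 1.57-fold. Ly6 genes are a family of close copies, so reads may have been split between them. Their log2 ratios of 0.83 and 0.65 became 0.25 and 0.24 against low cells weighted for chromosome 5. Mrc1 encodes the mannose receptor, best known from macrophages. It was at 149 CPM in members and 96.8 in low cells, while the immune list summed to 1.09 CPM in members. The log2 ratio of Mrc1, 0.62, became 0.47 against low cells with no squamous UMI. It was 0.42 against those weighted for chromosome 5, also short of the fold, which it passed in 10 of 19 alternatives. Aurkb and Ska1 act in chromosome segregation. Aurkb was at 32.0 CPM in members (27.4 to 37.1) and 21.2 in low cells (18.2 to 24.5), and Ska1 at 40.9 (35.7 to 46.6) and 27.1 (23.8 to 30.8). Ska1 passed the fold in 6 of 19 alternatives, with a log2 ratio of 0.42 against low cells with no squamous UMI and 0.56 against those weighted for chromosome 5.

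The lowest ratio belonged to Col4a3, at 15.8 CPM in members (12.7 to 19.5) and 40.5 in low cells (36.4 to 45.0), 2.56-fold lower. It kept a log2 ratio of -1.39 against low cells without squamous UMIs and -1.24 against those weighted for chromosome 5, and was past the fold in 18 of 19 alternatives; it was -0.11 in cells chosen by Btc alone. In A cells Col4a3 was at 0.270 CPM. Sgk1, a kinase that regulates ion channels, was at 21.8 CPM in members and 53.5 in low cells. Nupr1 was at 34.5 and 83.9 CPM, and Hpgd, which degrades prostaglandins, at 16.5 and 38.2 CPM. Sgk1 and Nupr1 were at 114 and 216 CPM in 205 thinned squamous B cells. These had at least 4 Krt14 and Sprr1a UMIs and at most 1 UMI of Areg, Btc and Cftr. Against low cells with no Krt14 or Sprr1a UMI, the log2 ratio of Sgk1 went from -1.29 to -0.91, that of Nupr1 from -1.28 to -0.74 and that of Hpgd from -1.21 to -0.78. Against low cells weighted for chromosome 5 they were -0.75, -0.68 and -1.01. With both restrictions Sgk1 was at -0.50 and Nupr1 at -0.32, short of the fold, and Hpgd at -0.71.

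The remaining genes among the 12 lowest ratios included parts of the cytoskeleton and matrix. Cald1 (caldesmon, an actin-binding protein) was at 118 CPM in members and 217 in low cells, Timp3, an inhibitor of matrix proteases, at 61.6 and 107 CPM, and Basp1, a membrane-associated signalling protein, at 173 and 283 CPM. Ctsh, a lysosomal protease, was at 30.7 and 56.2 CPM, and H2bc4, a histone H2B gene of a family of close copies, at 33.4 and 64.3 CPM. Wnt7b, a secreted Wnt ligand, was at 19.4 CPM in members (15.9 to 23.5) and 32.5 in low cells (28.8 to 36.5). Against low cells weighted for chromosome 5 the log2 ratios of Timp3 (-0.43), Basp1 (-0.46), Ctsh (-0.47), H2bc4 (-0.44) and Wnt7b (-0.41) were short of the fold, and Cald1 (-0.62) was past it; with both restrictions Cald1 was at -0.54, short of the fold. The last 2 of the 12, Hmgcs1 and Fdps, belong to cholesterol synthesis.

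**Figure D4:**
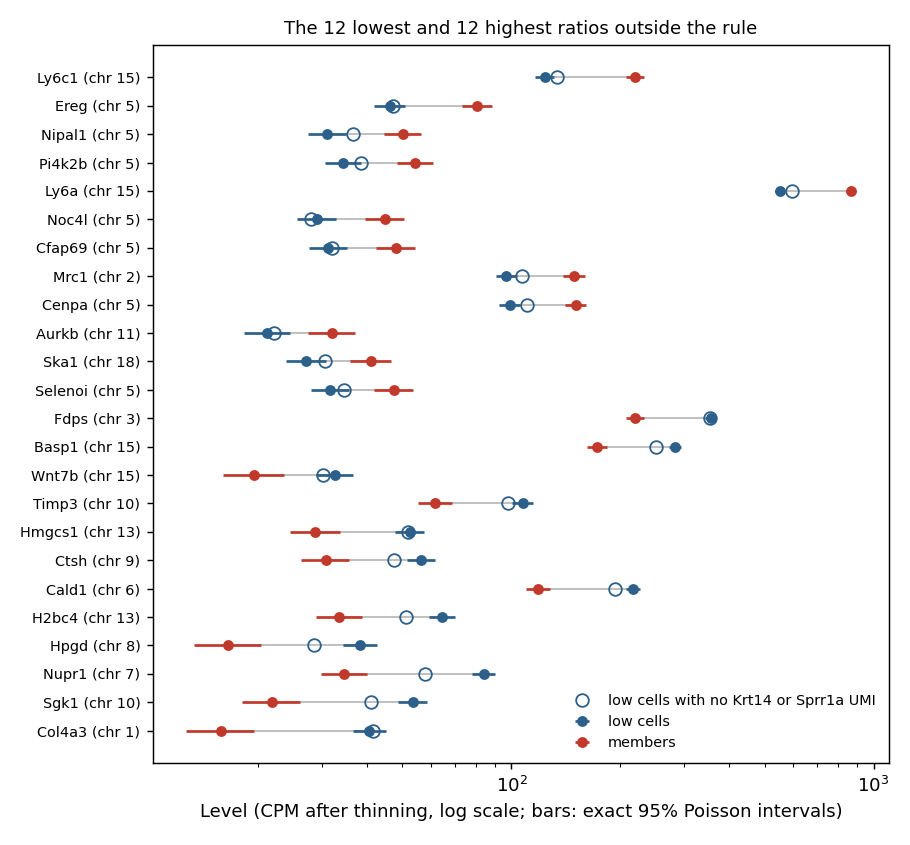
Levels after thinning (horizontal axis, CPM, log scale) of the 12 genes with the highest and the 12 with the lowest ratio of members to low cells outside the rule, with their chromosome. Filled points are members and low cells with exact 95% Poisson intervals, and open points are low cells with no Krt14 or Sprr1a UMI. Of the 12 upper genes 7 are on chromosome 5, and Col4a3 has the widest gap.

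The lists of pathway genes were read by counts and medians, beside all 5330 genes, which had a median log2 ratio of -0.01, 47.3% of genes above 0, 0.225% past the fold higher and 0.544% lower. In the cholesterol list 4 of 14 genes of at least 25 CPM were at least 1.5-fold lower in members and 0 were higher, with 1 of 14 above a log2 ratio of 0. Its median was -0.46, and its 18 genes summed to 929 CPM in members (904 to 955) and 1281 in low cells (1258 to 1305). Hmgcs1, which makes the first committed precursor of the pathway, was at 28.7 CPM in members (24.4 to 33.5) and 52.4 in low cells (47.7 to 57.5). Fdps, the farnesyl diphosphate synthase, was at 219 (207 to 232) and 355 CPM (343 to 368). Msmo1, a sterol oxidase, was at 92.1 and 147 CPM, and Fdft1, the squalene synthase, at 30.2 and 45.4 CPM. Cyp51, a sterol demethylase, was at 128 and 125 CPM, a log2 ratio of 0.02 that made it the only tested gene of the list above 0. Its sign did not hold: it was -0.20 with another thinning seed, -0.12 unthinned and -0.18 with low cells weighted for chromosome 5. Against low cells weighted for chromosome 5, Hmgcs1 (-0.82) and Msmo1 (-0.65) stayed past the fold, and Fdps (-0.55) and Fdft1 (-0.51) were short of it. Fdft1 passed the fold in 6 of 19 alternatives. The list median was -0.41 against low cells with no squamous UMI and -0.38 against those weighted for chromosome 5. Fdps also differed by range of chromosome 5 share among all B cells, at 358, 324 and 236 CPM.

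The list of EGFR-family ligands holds ligands of EGFR and the neuregulins. Of its genes outside the rule, 1 of 4 tested was higher, Ereg, and 0 were lower. Hbegf, another ligand of EGFR, was at 167 CPM in members and 180 in low cells, Nrg1, a ligand of ERBB3 and ERBB4, at 61.0 and 68.5 CPM, and Tgfa at 27.1 and 25.4 CPM. So Ereg, the neighbour of Areg on chromosome 5, was higher, and the tested ligands on other chromosomes were near the same level. Egfr, the receptor, was at 70.8 CPM in members and 104 in low cells, a log2 ratio of -0.56 that did not reach the fold. Errfi1, an inhibitor of EGFR, was at 326 and 288 CPM, and Adam10, a protease that releases ligands, at 51.8 and 53.5 CPM. No gene of the receptor and shedding list, 3 tested, reached the fold.

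The ERK list had a median of 0.06, with 8 of 10 tested genes above 0 and none past the fold in either direction. Its median was 0.14 against low cells with no squamous UMI, 0.17 against those weighted for chromosome 5 and 0.19 with both. Fosl1, an AP-1 subunit, was at 87.9 CPM in members and 68.6 in low cells, a log2 ratio of 0.36; over 19 alternatives, none past the fold, it ran from 0.0026 in cells chosen by Btc alone to 0.52 for members of at least 6 UMIs. Ccnd1 (cyclin D1) was at 491 CPM in members and 492 in low cells, Phlda1 at 299 and 298 CPM, Ier3, an early-response gene, at 254 and 244 CPM, and Plaur, the urokinase receptor, at 194 and 187 CPM. The list of cyclic AMP and CREB response genes had 0 of 4 tested genes past the fold and a median of -0.02.

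Duct transport genes around Cftr were at like levels in both groups: 0 of 10 tested genes outside the rule reached the fold, and the median was 0.00. Aqp5, a water channel, was at 227 CPM in members and 228 in low cells, Ano1, a calcium-activated chloride channel, at 178 and 167 CPM, and Slc12a2, the sodium, potassium and chloride carrier, at 169 and 152 CPM. Atp1b1, a sodium pump subunit, was at 178 and 209 CPM. The duct and foregut list had 0 of 13 past the fold and a median of -0.05, with Spp1 (osteopontin), a chromosome 5 gene, at 711 and 815 CPM. The simple epithelial list had 0 of 6 past the fold and a median of -0.06. With so few of all genes past the fold, these counts of 0 say nothing particular to duct genes.

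The YAP and TEAD list had 2 of 14 tested genes above 0 and a median of -0.26, with none past the fold. Ccn1 and Ccn2, secreted matrix proteins, were at 169 and 181 CPM in members and 250 and 247 in low cells. F3 (tissue factor), one of the 2 genes above 0, was at 562 and 499 CPM. The mesenchymal list had 1 of 9 above 0 and a median of -0.27, with none past the fold; Vim (vimentin) was at 1935 and 2043 CPM and Tpm1 (tropomyosin) at 731 and 925 CPM. Both medians were nearer to 0 against low cells weighted for chromosome 5, at -0.15 and -0.20. Against low cells with no squamous UMI they were -0.15 and -0.23, and with both restrictions -0.09 and -0.18. In the Wnt list 1 of 7 tested genes was lower, Wnt7b, and in the prostaglandin list 1 of 5, Hpgd, while Ptgs2, which makes prostaglandins, was at 199 CPM in members and 188 in low cells. The squamous list had 0 of 7 tested genes past the fold outside the rule and a median of -0.12.

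The mitosis list had 21 of 22 tested genes above 0 and a median of 0.23, with 1 past the fold, Aurkb. Its genes summed to 3106 CPM in members (3060 to 3153) and 2572 in low cells (2539 to 2606). Top2a (topoisomerase II alpha) was at 619 and 490 CPM, Cenpe, a kinetochore motor, at 295 and 229 CPM, and Mki67 at 288 and 247 CPM. With the rule applied to thinned counts, which changed the groups to 519 and 4051 cells, the median was -0.01, and with low cells weighted to the depth of members it was 0.13. Unthinned it was 0.25, and thinned to 5000 UMIs, which kept 1257 and 1537 cells, it was 0.17. The part of depth in this shift was not tested. The S phase list had 12 of 21 genes above 0 and a median of 0.02. The lists of AP-1, p53, TGF-beta, Notch, interferon, hypoxia, ATF4 and cell cycle brake genes had none past the fold. Their medians lay from -0.22 to 0.01, the lowest from the single tested Notch gene, Hes1.

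**Figure D5:**
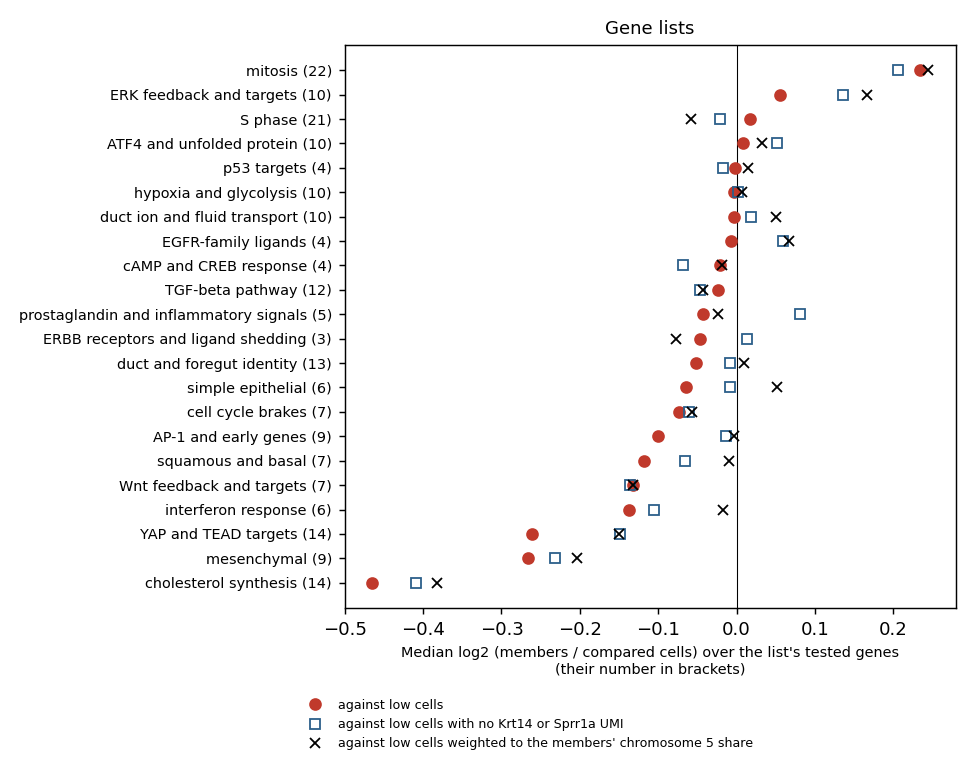
Median log2 ratio of members to compared cells (horizontal axis) for each list with at least 3 tested genes, their number in brackets, without rule genes. Filled circles use low cells, open squares low cells with no Krt14 or Sprr1a UMI, and crosses low cells weighted to the members' chromosome 5 share. Cholesterol synthesis lies lowest in all 3 and mitosis highest.

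B cells were also chosen by 1 gene at a time. Here the high cells had at least 2 UMIs of the gene with no Krt14 or Sprr1a UMI, and the others had none of the gene, both counted before thinning. The groups overlap with the members by construction: the 3282 cells chosen by Areg held 1803 of the 1835 thinned members (98.3%), the 163 chosen by Btc held 138 and the 230 chosen by Cftr held 179. The cells chosen by Areg had a chromosome 5 median of 0.28 and a cholesterol median of -0.42, and 54.9% of them were members. Of 5333 tested genes, 9 were higher in them (0.169%), 7 of these on chromosome 5. Btc was at 44.8 CPM in them (40.7 to 49.2) and 23.9 in the others (19.8 to 28.5), and Cftr at 45.2 and 45.4 CPM. The cells chosen by Btc had a chromosome 5 median of 0.32. Of 5332 tested genes, 193 were higher in them (3.62%), 60 of these (31.1%) on chromosome 5, which held 6.86% of the tested genes. The cells chosen by Cftr had a chromosome 5 median of 0.13 and a cholesterol median of 0.01. Of 5320 tested genes, 106 were higher in them (1.99%), 9 of these (8.49%) on chromosome 5, near its 6.69% of the tested genes. A gene of 25 CPM had about 12 UMIs in the cells chosen by Btc and about 17 in those chosen by Cftr, so many of these calls can lie within counting error. Areg was at 497 CPM in the cells chosen by Cftr (446 to 553) and 420 in the others. Btc was at 60.9 CPM in them (43.9 to 82.3, from 42 UMIs) and 35.3 in the others. Over the steps of thinned Cftr counts in all B cells, Btc was at 35.6, 41.9 (34.6 to 50.4) and 33.6 CPM (17.9 to 57.4, from 13 UMIs). The interval of the last step overlaps that of the cells chosen by Cftr. The 2 readings do not settle whether Btc rises with Cftr.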

How the data were processed

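The authors deposited raw UMI counts per gene and cell barcode, made with Cell Ranger 8.0.1 on GRCm39, per the submitters' processing notes; the annotation release is not given in the sources used here. Groups were made by gene counts, as stated above. Members, comparison and gene lists were chosen with earlier results of these data known.

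Cells were kept with at least 2000 UMIs, 1000 genes and at most 15% mitochondrial UMIs. Counts were thinned to 3000 UMIs per cell without replacement and summed, and levels are CPM with exact 95% intervals. A gene with a mean of both levels of at least 25 CPM, called tested, was counted as higher or lower past a fold of 1.5. Named genes were the rule genes, the 12 highest and 12 lowest ratios without predicted, mitochondrial and ribosomal-protein genes, and, of each list, genes past the fold and from among its 4 most abundant. Cyp51, Egfr, Nrg1, Tgfa, Adam10, Mki67, Clu, Fosl1, Hes1, Epcam, Sox9, Ptprc and Pecam1 were added outside that rule, some after their values were seen.

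Chromosomes and gene order came from GENCODE M21, an older build, which matched 31961 of 33696 features with 99.744% of UMIs; no coordinate was taken from it. Doublets were marked with Scrublet in scanpy 1.11.5 and kept. The steps were checked on simulated counts. Alternatives were other thinning depths and seeds, thresholds, filters, comparison cells and weightings.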

Additional observations from a re-analysis of the deposited data

How the results depend on the processing

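Depth limits the low genes: a gene of 25 CPM gave about 138 UMIs in the thinned members. There was 1 library, so no result has a replicate check, and leaving out a replicate was not possible. No paired analysis was possible because there was 1 library and no test. Of 2160 values of 114 named genes under the alternatives, 1766 stayed within the counting interval of the main log2 ratio, 386 lay outside it, some with a change of sign in genes short of the fold, and 8 were sign changes of genes past the fold. The chromosome 5 shift, its median less that of all tested genes, was 0.30, and 0.10 in cells chosen by Cftr alone. It was 0.025 with low cells weighted to the members' chromosome 5 share and 0.025 with those low cells also free of squamous UMIs, as the weighting sets it.

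The numbers of genes higher and lower were 12 and 29. They were 24 and 44 with the rule on thinned counts, which left members at 7.5% of B cells, 4 and 15 against low cells with no Krt14 or Sprr1a UMI, and 43 and 51 against low cells with 0 UMIs. They were 45 and 57 for members of at least 6 UMIs, and 5 and 14 for members with any Krt14 and Sprr1a. They were 193 and 179 by Btc alone and 106 and 81 by Cftr alone. Under chromosome 5 weighting they were 2 and 14, and 1 and 7 without squamous UMIs. They were 41 and 120 at 10 CPM, 4 and 9 at 100 CPM, and 0 and 4 at a fold of 2. The number higher alone moved to 20 at 5000 UMIs per cell, 7 for members of at least 3 UMIs and 21 for B cells of 4 or more UMIs.

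The span of log2 ratios from the 1st to the 99th percentile was 0.94. It was 1.07 on thinned counts, 0.83 without squamous low cells, 1.15 against 0 UMIs, 1.16 for members of at least 6, 0.81 with any Krt14 and Sprr1a, 1.58 by Btc alone, 1.33 by Cftr alone, and 0.76 and 0.77 under the weightings.

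The cholesterol median of -0.46 was -0.34 with any Krt14 and Sprr1a, -0.32 by Btc alone, -0.33 with both restrictions and 0.0085 by Cftr alone. The mitosis median of 0.23 was 0.13 with low cells weighted for depth, -0.011 with the rule on thinned counts and -0.092 by Cftr alone. Of the genes past the fold, those that changed sign by Cftr alone were Aurkb (-0.13), Mrc1 (-0.018), Ska1 (-0.013), Hmgcs1 (0.23), Fdft1 (0.0085) and Timp3 (0.13); genes short of the fold changed sign too, such as Egfr (0.06). Aurkb was -0.45 by Btc alone, and Cftr -0.0077 by Areg alone. The cause of these changes was not tested.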
